A study of Mus musculus with 4 samples.

Results

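The genes described here are 10 that encode collagen IV, laminin and nidogen, the main proteins of basement membranes. They are Col4a1, Col4a2, Col4a5, Lama2, Lama4, Lamb1, Lamb2, Lamc1, Nid1 and Nid2, taken by symbol from the amplicon names. All 10 were found among the 23930 amplicons of the panel, and all 10 passed the filter on low values. The cells were primary progenitors of subcutaneous tissue from C57BL/6 mice, and every group carried floxed Gnas, the gene of the stimulatory G protein alpha subunit. The 2 control libraries (genotype wild type) came from cells given an adenovirus for green fluorescent protein (Ad-GFP). The 2 mutant libraries (genotype Gnas-/-) came from cells given an adenovirus for Cre recombinase (Ad-Cre). All were kept in osteogenic medium for 7 days. The virus differs between the groups as well as the genotype, so their effects cannot be told apart. Whether replicate libraries stem from different animals or cultures is not stated in the labels. The p-values below thus measure only how far these libraries differ, which may be technical.

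Basement membranes are thin sheets of matrix on which epithelia and vessels rest, and which wrap muscle, fat and Schwann cells. Laminin is a trimer of an alpha, a beta and a gamma chain that polymerises at the cell surface and binds integrins and dystroglycan. Collagen IV is a triple helix of alpha chains that forms a crosslinked network, and nidogens bind both and bridge them. Fibroblasts and other mesenchymal cells make many of these chains and deliver them to the basement membranes of neighbouring cells.

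Each library held between 13483518 and 18455811 reads, computed from the deposited RPM (amplicon reads as a part of the library, scaled so that every column has the same sum). A panel of this kind reads each gene through 1 short target. RPM values are therefore compared between libraries for the same gene, and not between genes. No row was named Gnas, so the targeted gene was not analysed here. The 8 fibroblast markers checked were read in every library, and summed to 12641 and 18150 RPM in the controls and to 30323 and 33804 RPM for the mutants. Col1a1 was the largest part of that sum. Dpt was the 1 of the 8 that passed in limma, as higher (adjusted p = 0.0389, edgeR 0.0848). For these 8, edgeR called 0 and DESeq2 called 3 higher and 0 lower, and the shares of all genes are given below. Dcn and Col3a1 had negative log2 fold changes (-0.71 and -0.32). The 7 keratinocyte markers summed to at most 1.28 RPM in any library. Control 2 stood apart in its macrophage markers: the 10 checked summed to 971 RPM there, to 49.6 RPM in the other control, and to 33.5 and 20.1 RPM in the mutants. Most of each control sum was Lyz2, at 33.9 and 822 RPM. The groups differed as well: Tyrobp gave 1.35 and 24.9 RPM in the controls, then 0.115 and 0 in the mutants. Of the 8 tested, limma and edgeR called 0, and DESeq2 called 4 lower and 0 higher. In limma 2 had an unadjusted p below 0.05 as lower, Tyrobp and Ctss, and Aif1 had a positive log2 fold change (1.01). Tyrobp, Ctss and Fcer1g, all among the DESeq2 calls, reached the filter only through the controls, so their direction was fixed beforehand. The other DESeq2 call, Cd68, gave 6.12 and 57.7 RPM in the controls, then 3.04 and 2.15 in the mutants. Control 2 also had no read of Xist, the RNA of the inactive X chromosome. Xist was at 165 RPM in control 1 and at 395 and 419 RPM in the mutants. The Y-linked gene Ddx3y gave 61.4 and 124 RPM in the controls, then 26.9 and 12.5 in the mutants, so the Xist and Ddx3y levels differ between the groups as well as in control 2. The part of these differences in the results below was not tested.

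The laminin alpha 2 chain gene Lama2 was the 1 member of 10 that passed the test, and it rose in the mutants. Of all 11638 genes tested, 1.73% passed as higher and 0.576% as lower (limma on log2(RPM + 1), Benjamini-Hochberg adjusted p below 0.05). The other 9 members did not pass. No member passed as lower. In limma 3 members had an unadjusted p below 0.05 as higher and 3 as lower, beside 1380 and 700 of all 11638 genes. With the other tools, edgeR called 0 members in either direction, and DESeq2 called 2 higher and 3 lower. DESeq2 called 5.14% of all genes higher and 4.24% lower, and edgeR 0.567% and 0.232%. In 8 members the 2 groups did not overlap, 5 of them higher and 3 lower in the mutants. Of all genes tested, 30.6% lay higher and 21.1% lower without overlap, 51.8% together, so a lack of overlap alone says little with 2 libraries a group. Fits that leave out a control test 1 control library, assumed to vary as the mutant pair does. In these fits calls were common: 15.2% of genes passed as higher and 7.23% as lower without control 1, and 10.4% and 7.51% without control 2. A member that passes there and not with all 4 libraries is named below for its value, and the call adds no support. The median log2 fold change of the 10 members was 0.53, against 0.08 over all genes tested. Of the members 6 were positive and 4 negative. Over all 11638 genes 6546 were positive and 5092 negative, a similar split.

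**Figure D1:**
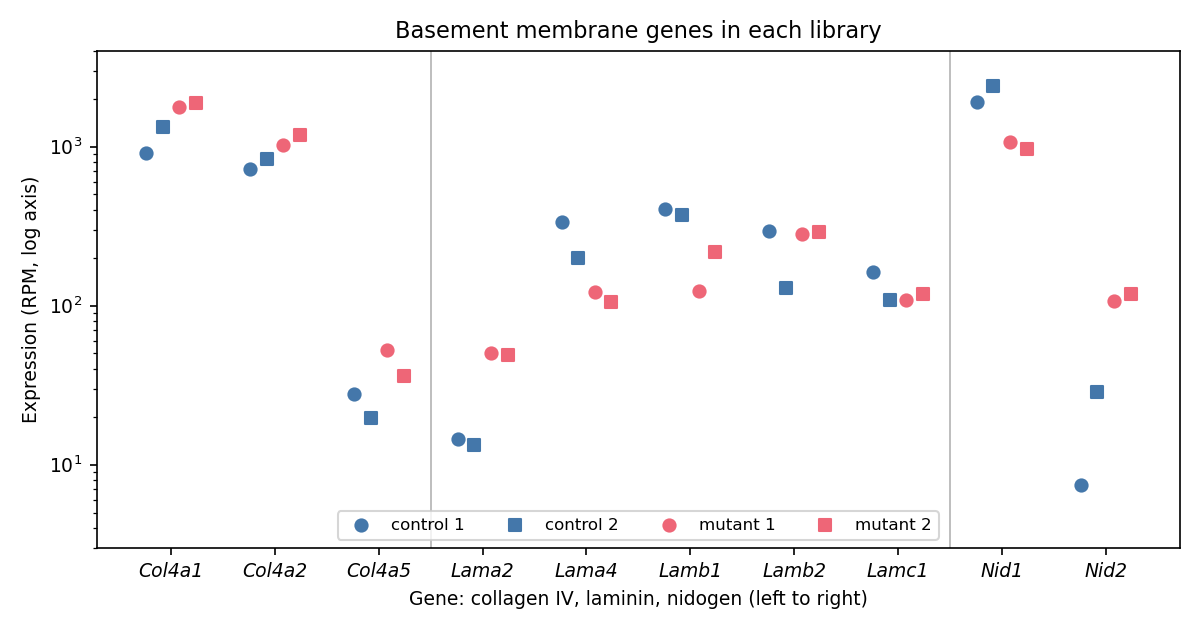
RPM (log axis) of the 10 genes in each library, with controls in blue and mutants in red, and replicate 1 as circles and replicate 2 as squares. Col4a1, Col4a2, Col4a5, Lama2 and Nid2 lie higher in both mutants than in both controls, Lama4, Lamb1 and Nid1 lie lower, and Lamb2 and Lamc1 overlap.

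Col4a1 and Col4a2 encode the alpha 1 and alpha 2 chains, which assemble into the collagen IV found in nearly every basement membrane. The genes lie head to head on chromosome 8 (GENCODE M21 gene models on GRCm38), Col4a1 at 11198423 to 11312826 on the minus strand and Col4a2 at 11312805 to 11449287 on the plus strand. Their annotated starts are 21 bases apart and the gene models overlap there. Because this pair shares its start region, 2 short stretches of it are shown (RefSeq promoter table, GRCm38.p6, plus strand). Capitals mark a CCAAT box (letters CCAAT) or a GC box (letters GGGCGG) on either strand, and no matches overlap in the stretches shown. The first stretch is chr8:11312755-11312784 and the second, which runs from one annotated start to the other, is chr8:11312805-11312826.
Col4a1-Col4a2 first stretch: cgCCGCCCgaggagctccCCAATttgttgg
Col4a1-Col4a2 between starts: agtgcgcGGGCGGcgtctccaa
The letters of a CCAAT box occur in 37.4% and those of a GC box in 35.7% of the 32851 promoter windows in the table, each 300 bases long. Such a match is a description of the letters and not evidence of a bound site.

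Col4a1 was read at 904 RPM (control 1), 1332 (control 2), 1783 (mutant 1) and 1870 (mutant 2). Col4a2 gave 723, 833, 1023 and 1188 RPM in library order. Both genes were thus lowest in control 1, next in control 2 and higher in both mutants, with groups that do not overlap. For Col4a1 the log2 fold change was 0.73 (95% interval -0.05 to 1.52, adjusted p = 0.303). For Col4a2 it was 0.51 (-0.13 to 1.14, adjusted p = 0.366). Neither passed in limma, and both intervals run from a slight fall to a rise. With control 1 as the lone control, Col4a1 had a log2 fold change of 1.01 (adjusted p = 0.0149 in that fit).

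Col4a5 encodes the alpha 5 chain, found in the glomerular and some other specialised basement membranes, and lies on chromosome X at 141475385 to 141689234. It was read at 28 RPM (control 1), 19.6 (control 2), 52.8 (mutant 1) and 36 (mutant 2). The lowest value was that of control 2, which also had no Xist read. Ddx3y was highest there and lower in both mutants, and the part of the cells' sex in these values was not tested. Col4a5 had a log2 fold change of 0.87 (95% interval 0.06 to 1.68, adjusted p = 0.254), short of the threshold. With control 2 as the lone control it was 1.12 (adjusted p = 0.0257 in that fit). The remaining collagen IV chains were scarcely read. Col4a6 was at most 1.89 RPM in any library (log2 fold change 0.54, adjusted p = 0.507). Col4a3 and Col4a4, whose chains assemble with alpha 5 in the kidney, were untested, with at most 0.108 and 0.741 RPM.

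Lama2 encodes the alpha 2 chain of the laminins that surround muscle fibres and Schwann cells, and its loss causes a congenital muscular dystrophy. Lama2 was read at 14.6 RPM (control 1), 13.3 (control 2), 50.1 (mutant 1) and 49 (mutant 2). The controls lay within 1.1-fold of each other and the mutants within 1.02-fold, and the groups were far apart. The mean went from 14 ± 0.905 to 49.6 ± 0.767 RPM (SD, n = 2 libraries; the same n applies to each group mean below), a 3.54-fold ratio. The log2 fold change was 1.76 (SE 0.24, limma adjusted p = 0.0386), and 442nd largest of the 11638 tested. The values rest on 270, 180, 875 and 728 reads in library order. In control 2, the library with the fewest, counting error alone gives a 95% interval of 11.5 to 15.4 RPM. The call is close to the threshold: it was lost in edgeR (adjusted p = 0.0515) and without a filter on low values (0.0674), at nearly the same fold change. It was also lost without mutant 1 (adjusted p = 0.659) or mutant 2 (0.671), settings in which no gene of the table passed.

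Lama4 encodes the alpha 4 chain, typical of vessel and fat cell basement membranes and of mesenchymal cells. Lama4 was read at 335 RPM (control 1), 198 (control 2), 122 (mutant 1) and 106 (mutant 2). Both mutants lay below both controls, while the controls differed 1.69-fold between themselves. Lama4 had a log2 fold change of -1.17 (95% interval -1.95 to -0.40, limma adjusted p = 0.146), which did not pass; DESeq2 gave an adjusted p of 0.00298. Against control 2 alone the log2 fold change was -0.80 (adjusted p = 0.0247) and against control 1 alone -1.55 (0.0011), from fits with 1 control. Lama2 and Lama4 both lie on chromosome 10, at 26980036 to 27619758 (minus strand) and 38965515 to 39110188 (plus strand).

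Lamb1 encodes the beta 1 chain, the most widespread beta chain of laminins. It was read at 402 RPM (control 1), 372 (control 2), 124 (mutant 1) and 218 (mutant 2). The controls were close to each other, and the mutants, both lower, differed 1.75-fold. Lamb1 had a log2 fold change of -1.23 (95% interval -2.03 to -0.42, limma adjusted p = 0.143) and DESeq2 gave an adjusted p of 0.0117. Fits with 1 control gave adjusted p = 0.0299 against control 2 and 0.0211 against control 1. Lamb2 encodes the beta 2 chain, known from the neuromuscular junction and the glomerulus. Lamb2 was read at 296 RPM (control 1), 129 (control 2), 282 (mutant 1) and 292 (mutant 2). Control 2 alone was low and control 1 lay with the mutants, so the groups overlap. The log2 fold change of Lamb2 was 0.55 (95% interval -0.50 to 1.60, adjusted p = 0.545). With 1 control it was 1.14 against control 2 (adjusted p = 0.00429) and -0.04 against control 1 (0.907), so the value rests on which control is used.

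Lamc1 encodes the gamma 1 chain, the gamma chain of most laminin trimers. It was read at 162 RPM (control 1), 108 (control 2), 109 (mutant 1) and 118 (mutant 2). Control 1 was the highest and the other 3 libraries lay close together, so the groups overlap. Its log2 fold change was -0.22 (95% interval -0.89 to 0.45, adjusted p = 0.718), and its sign turned without control 1 (0.07). The interval leaves room for a fall of 0.89 on the log2 scale as well as for a rise of 0.45.

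The laminin and nidogen promoters shown next are those of Lama2, the member that passed, and of Lamb1 and Nid1, whose values lay lower in both mutants. Promoter windows were found in the RefSeq table for 7 of the 10 members. Lamb1 and Nid1 are shown up to the GENCODE gene start. The Lama2 stretch ends at the RefSeq start, which lies 2816 bases inside the longer GENCODE gene model. The stretches are chr10:27616943-27617192 (minus strand) for Lama2, chr12:31265043-31265233 (plus strand) for Lamb1 and chr13:13437352-13437550 (plus strand) for Nid1, on GRCm38.p6. Capitals mark CCAAT or GC boxes on either strand, as above.
Lama2: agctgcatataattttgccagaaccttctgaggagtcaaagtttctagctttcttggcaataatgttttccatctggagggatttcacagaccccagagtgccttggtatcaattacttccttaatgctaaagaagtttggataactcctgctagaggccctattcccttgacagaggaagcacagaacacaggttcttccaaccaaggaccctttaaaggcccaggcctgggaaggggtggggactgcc
Lamb1: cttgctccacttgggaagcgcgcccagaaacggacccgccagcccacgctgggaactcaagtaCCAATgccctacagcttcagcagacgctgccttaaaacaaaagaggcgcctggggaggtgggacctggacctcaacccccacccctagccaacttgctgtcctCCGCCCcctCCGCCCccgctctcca
Nid1: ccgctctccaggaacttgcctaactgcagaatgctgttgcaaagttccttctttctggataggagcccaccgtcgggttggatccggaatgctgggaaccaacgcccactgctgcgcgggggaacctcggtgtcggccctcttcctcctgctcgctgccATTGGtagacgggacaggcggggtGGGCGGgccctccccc
The stretches of Lamb1 and Nid1 hold both sets of letters. That of Lama2 holds neither, but its full window has a GC box after the RefSeq start. Over the full windows, a CCAAT box was found in 5 and a GC box in 6 of the 7 matched members. The letters of a TATA box (TATAAA), a cAMP response element (TGACGTCA) and a GLI site (GACCACCCA) were in none of the 7 windows, searched on both strands. These letters occur in 13.6%, 1.79% and 0.253% of all windows in that order. Their absence says only that these letters are not in these windows.

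Nid1 encodes nidogen 1, which binds the laminin gamma 1 chain and collagen IV, and lies on chromosome 13 at 13437551 to 13512269. Nid1 was read at 1897 RPM (control 1), 2408 (control 2), 1063 (mutant 1) and 968 (mutant 2). Both mutants lay well below both controls. The control mean was 2152 ± 361 RPM and the mutant mean 1015 ± 67.7 RPM, a 2.12-fold ratio. The log2 fold change was -1.07 (95% interval -1.79 to -0.36, limma adjusted p = 0.146), short of the threshold. DESeq2 gave an adjusted p of 0.00197. With 1 control it was -1.25 against control 2 (adjusted p = 0.00625) and -0.90 against control 1 (0.024).

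Nid2 encodes nidogen 2, a homologue with similar binding partners, and lies on chromosome 14 at 19751265 to 19811787. Nid2 was read at 7.48 RPM (control 1), 28.6 (control 2), 107 (mutant 1) and 119 (mutant 2). The controls differed 3.82-fold between themselves, more than in any other member, while the mutants differed 1.11-fold. Counting error is small beside that spread, with a 95% interval of 6.28 to 8.83 RPM in control 1 and 25.8 to 31.6 RPM in control 2. The control mean was 18 ± 14.9 RPM and the mutant mean 113 ± 8.62 RPM, a 6.29-fold ratio. The log2 fold change of 2.85 was 134th largest of the 11638 tested, but with a 95% interval of 1.33 to 4.37 it did not pass in limma (adjusted p = 0.0958). Nid2 passed in DESeq2 (adjusted p = 0.0019), and with the replicate number as a block (adjusted p = 0.03). With 1 control it was 1.95 against control 2 (adjusted p = 0.000531) and 3.75 against control 1 (3.39e-05). Those p-values take their spread from the mutants alone, whereas the controls of Nid2 differ 3.82-fold, and its size rests on which control is used.

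**Figure D2:**
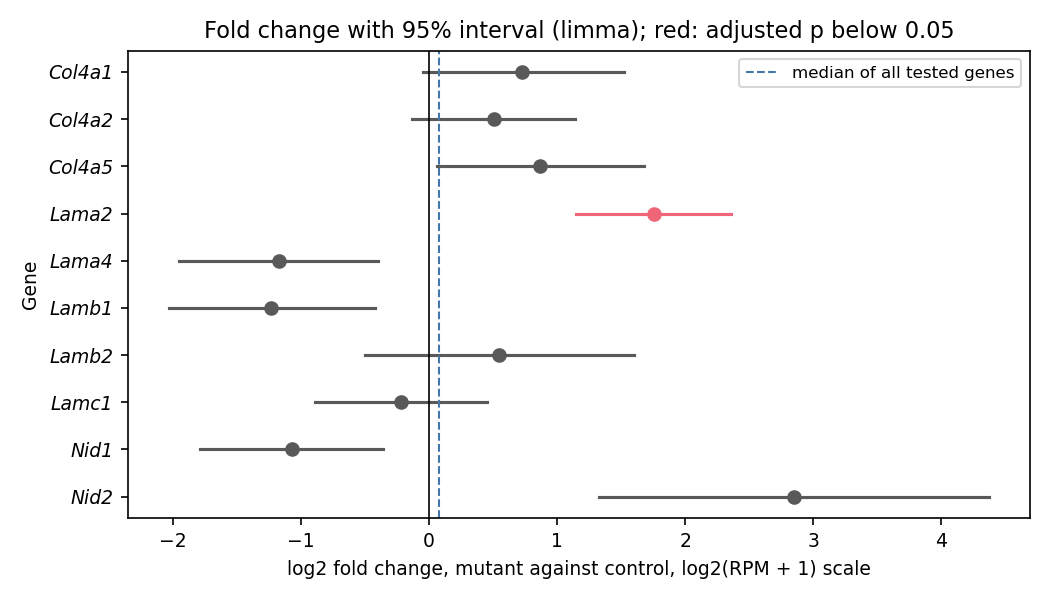
Log2 fold change of mutant against control on the log2(RPM + 1) scale for the 10 genes, with limma's 95% interval as bars. Lama2, in red, passed the threshold at 1.76, the dashed line is the median of all tested genes (0.08), and Nid2 has the highest value, 2.85, with the widest interval.

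Ratios between related genes within a library divide out library size. They follow how reads of the first gene change relative to the second between libraries. Each gene is read through its own target, so the level of a ratio is not interpreted. The ratios are of amplicon reads and not of protein chains. The ratio of Lama2 to Lama4 was 0.0436 and 0.0673 in controls 1 and 2, and 0.411 and 0.462 in mutants 1 and 2. It was thus 8.05-fold higher in the mutants (6.48 to 9.99 with a library left out), and both mutants lay above both controls. The ratio of Nid2 to Nid1 was 0.00394, 0.0119, 0.101 and 0.123 in that order, 16.3-fold higher in the mutants. That size rests on the controls, with 9.41-fold against control 2 alone and 28.3-fold against control 1 alone. The ratio of Lamb2 to Lamb1 was 0.736 and 0.348 in the controls and 2.26 and 1.34 in the mutants. This was a 3.44-fold higher ratio in the mutants, again without overlap (2.37 to 5.01 with a library left out). Lamb1 against its usual partner Lamc1 gave 2.48 and 3.45 in the controls and 1.15 and 1.84 in the mutants, 2.02-fold lower.

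Col4a2 to Col4a1 was 0.8 and 0.625 in the controls and 0.574 and 0.635 in the mutants. Col4a5 to Col4a1 was 0.0309 and 0.0147 in the controls and 0.0296 and 0.0193 in the mutants. In both ratios the groups overlapped. A two-sided exact permutation test gave p = 0.333 for each of the 4 ratios without overlap, 0.667 for Col4a2 to Col4a1 and 1 for Col4a5 to Col4a1. Since 0.333 is the smallest p that 2 libraries against 2 allow, no ratio could pass. Adjusted over the 6 ratios, the p-values were 0.5, 0.8 and 1.

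**Figure D3:**
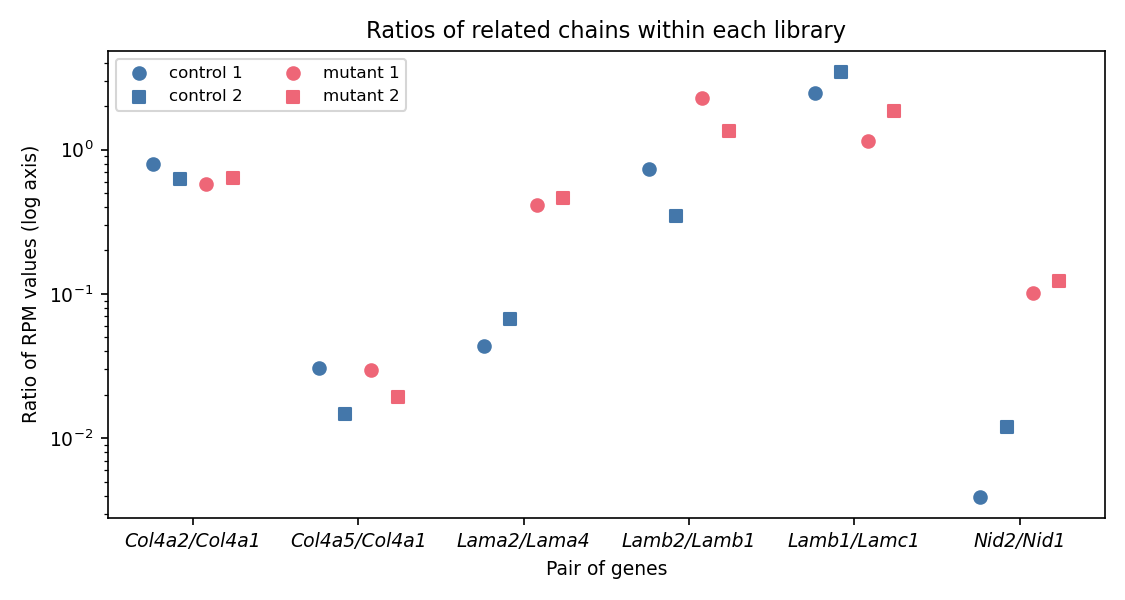
Ratio of the RPM of 2 related genes in each library (log axis), controls in blue and mutants in red. Lama2/Lama4, Lamb2/Lamb1 and Nid2/Nid1 lie higher in both mutants than in both controls, Lamb1/Lamc1 lies lower, and the collagen IV ratios overlap.

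The members were also compared by the shape of their profile over the 4 libraries, as the Euclidean distance between log2(RPM + 1) values centred on each gene's mean. The comparison was with 8304 other tested genes that had a mean of at least 10 RPM, and it is a description over 4 libraries. Col4a2 was the member nearest to Col4a1 (distance 0.355, rank 200), and Col4a1 the nearest to Col4a2 (rank 642). Nid1 was the member nearest to Lamb1 (distance 0.753, rank 205) and to Lama4 (distance 0.784, rank 538). Lama2 was the member nearest to Nid2 (distance 1.75, rank 181). For Lamc1 the nearest member was Lamb2 (distance 0.879, rank 5495), and a rank depends on how many genes lie near a profile as well as on the distance. Among the 3 genes most like Col4a1 were Emilin1 and Mapk14 (distances 0.0653 and 0.0774). Those most like Lama2 were Plekhg5, Gab1 and Wdr6 (0.105 to 0.139), and those most like Nid2 were Slc27a3, Rgs2 and Angpt2 (0.289 to 0.396).

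Besides the members, 9 other collagen IV and laminin chain genes were on the panel, and 4 of them passed the filter. Of these, 1 rose (Lama3), 0 fell and 3 did not pass. In limma 2 had an unadjusted p below 0.05 as higher and 1 as lower, against 1380 and 700 of all 11638 genes. For this list of 4, edgeR called 0, and DESeq2 called 2 higher and 0 lower, beside 5.14% and 4.24% of all genes. Lama3, whose alpha 3 chain belongs to the laminin that anchors epithelia, had no read in either control and 4.64 and 4.31 RPM in the mutants (81 and 64 reads). Set against 3 reads over both controls it was at least 47.6-fold higher (limma adjusted p = 0.0386, edgeR 0.0624). A gene with no control read reaches the filter only through the mutants, so its direction was fixed beforehand. Lama3 is part of the limma and DESeq2 counts of higher genes above, and adds no support to them. Lamb3, whose beta 3 chain joins alpha 3 in that laminin, was at most 0.269 RPM and untested.

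Lama5, whose alpha 5 chain is the broadly used partner of the beta 1 and gamma 1 chains, stood at 27.1, 4.6, 62.4 and 93.9 RPM in library order. Its log2 fold change of 2.63 did not pass in limma (adjusted p = 0.182), and DESeq2 gave an adjusted p of 0.0251. The log2 fold change ranged from 1.47 to 3.79 with a library left out, since control 2 was far below control 1. Lama1, the alpha chain of the early embryo, was read at 13.2 RPM in control 1 and at no more than 0.673 RPM in the other libraries. It was untested, as was Lamc3, with at most 0.269 RPM.

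Of 16 tested genes for other basement membrane components, 2 rose, 0 fell and 14 did not pass, with a median log2 fold change of 0.26. In limma 5 had an unadjusted p below 0.05 as higher and 1 as lower, against 1380 and 700 of all 11638 genes. Here edgeR called 0 and DESeq2 called 4 higher and 1 lower. Efemp1, which encodes fibulin 3, went from 51.2 and 36.2 RPM in the controls to 189 and 163 in the mutants (log2 fold change 2.00, adjusted p = 0.0345; edgeR 0.0531). Col28a1, which encodes a collagen known from peripheral nerve, went from 1.68 and 1.78 RPM to 77.5 and 25.6 RPM (4.07, adjusted p = 0.0387; edgeR 0.0567). Its mutants both lay far above the controls and differed from each other 3.03-fold, so the log2 fold change was 3.28 without mutant 1 and 4.85 without mutant 2. Fbln1, which encodes fibulin 1, gave 43.3 and 76.3 RPM in the controls, then 13.8 and 15.6 in the mutants (-1.90, adjusted p = 0.0693). Smoc2, a calcium-binding matrix protein gene, gave 17.3, 2.67, 66.6 and 57.7 RPM in library order and did not pass (log2 fold change 2.94, 1.78 to 4.10 with a library left out, adjusted p = 0.143). The laminin-binding netrin gene Ntn4 gave 85.4, 21.7, 181 and 174 RPM and did not pass either (2.01, 1.04 to 2.98, adjusted p = 0.2). In both, control 2 was the lowest library.

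Of 15 tested genes for basement membrane receptors and the proteins tied to them, 1 rose, 0 fell and 14 did not pass, with a median log2 fold change of 0.43. In limma 4 had an unadjusted p below 0.05 as higher and 0 as lower, against 1380 and 700 of all 11638 genes. For this list edgeR called 0 in either direction, and DESeq2 called 1 higher and 0 lower. Utrn, which encodes utrophin, a link between the dystroglycan complex and actin, gave 86.2 and 75.9 RPM in the controls, then 278 and 233 in the mutants. Its log2 fold change was 1.64 (adjusted p = 0.0362; edgeR 0.0578). Dag1, which encodes dystroglycan, the receptor for laminin alpha 2, gave 297 and 202 RPM in the controls, then 413 and 545 in the mutants. Dag1 did not pass (log2 fold change 0.95, adjusted p = 0.191), nor did the collagen-binding integrin gene Itga1 (1.02, adjusted p = 0.217) or the sarcoglycan gene Sgce (0.96, adjusted p = 0.258). Ddr1, a collagen receptor gene named after its values were seen, was at 0.108 RPM in control 1 alone, against 24.8, 28.2 and 30.2 RPM in control 2 and the mutants.

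Of 21 tested genes for collagen IV assembly, crosslinking and turnover, 0 rose and 0 fell in limma, with a median log2 fold change of -0.22. Unadjusted p was below 0.05 for 1 as higher and 4 as lower, against 1380 and 700 of all 11638 genes. With the other tools, edgeR called 0, and DESeq2 called 1 higher and 3 lower. The nearest were the lysyl hydroxylase gene Plod1 (345 and 389 RPM in the controls, 131 and 166 in the mutants, adjusted p = 0.0622) and the metalloproteinase inhibitor gene Timp3. Timp3 gave 1215 and 893 RPM in the controls, then 2973 and 2561 in the mutants (log2 fold change 1.40, adjusted p = 0.104). The prolyl hydroxylase gene P4ha2 gave 137 and 322 RPM in the controls, then 62.2 and 59.2 in the mutants (-1.78, adjusted p = 0.122).

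**Figure D4:**
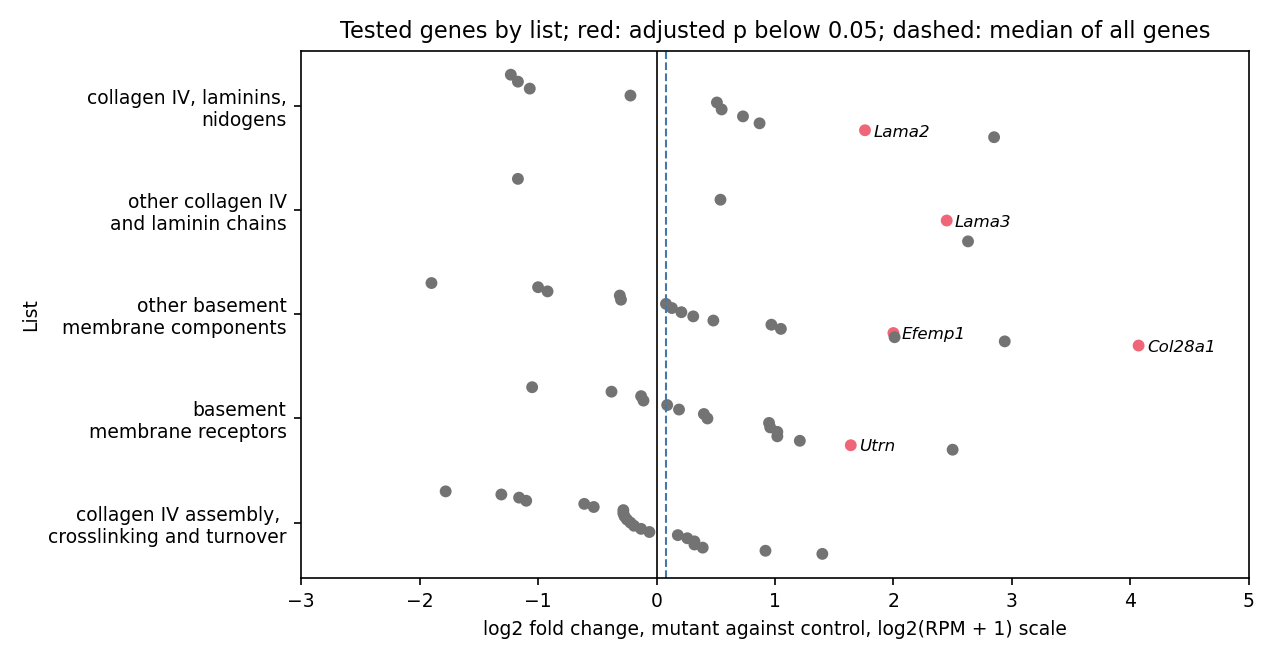
Log2 fold change on the log2(RPM + 1) scale of every tested gene in the 10 members and the 4 related lists, with genes past the threshold in red. Lama2, Efemp1, Col28a1 and Utrn passed as higher in the mutants, as did Lama3, whose direction was fixed by its lack of control reads, and the dashed line marks the median of all tested genes (0.08).

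Markers of cell types that make or border basement membranes were read beside these results. Of 9 pericyte and smooth muscle markers 5 were tested, and 2 rose in limma, 0 in edgeR and 3 in DESeq2. Of all genes tested, these tools called 1.73%, 0.567% and 5.14% higher. Cspg4, the NG2 proteoglycan gene, went from 15.1 and 22 RPM in the controls to 111 and 157 in the mutants, and the receptor gene Notch3 from 17.8 and 10.9 to 80.2 and 104. The 9 summed to 137 and 163 RPM in the controls and 359 and 517 in the mutants. That difference was carried by Cspg4, Notch3 and Mcam. Mcam gave 8.45 and 41.8 RPM in the controls, then 105 and 135 in the mutants (limma adjusted p = 0.164, DESeq2 0.0346). Myh11 and Des did not pass (log2 fold changes 0.08 and -0.12). Abcc9, a selective pericyte gene, was at 6.23 RPM in control 1, 0.89 in control 2 and at most 0.067 in the mutants, and was untested. Rgs5 and Kcnj8, also selective, were below 1 RPM throughout, and Higd1b was at 0 in every library.

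The 12 endothelial markers summed to 12.5 and 116 RPM in the controls and 28.3 and 50.6 in the mutants, highest in control 2, and Tie1 was at 0 in every library. None of the 8 tested passed in limma (0; 1 had an unadjusted p below 0.05 as higher), and edgeR and DESeq2 called 0. The 8 skeletal muscle markers summed to 8.62, 92.6, 34.1 and 67.5 RPM in library order, with Myod1, Pax7 and Ckm at 0 throughout. Most of that was Acta1 (6.07, 88.9, 25.4 and 53.9 RPM). Tnnt3 had a log2 fold change of 1.81 (limma adjusted p = 0.119, DESeq2 0.0272). The 8 Schwann cell markers summed to between 337 and 486 RPM, mostly Ncam1 (335, 356, 470 and 331 RPM), and Sox10 did not exceed 0.297 RPM. Of the 2 tested, limma and edgeR called 0. DESeq2 called 1 higher, S100b (adjusted p = 0.0015), beside 5.14% of all genes. S100b gave 1.08 and 2.89 RPM in the controls, then 12.9 and 14.9 in the mutants (log2 fold change 2.39, limma adjusted p = 0.066). The 8 adipocyte markers summed to between 101 and 141 RPM, mostly Lpl (92.4, 78.7, 121 and 110 RPM). Cfd and Retn were at 0, and Adipoq, Plin1 and Cidec did not exceed 0.471 RPM. In bulk RNA, fewer cells of a type and less RNA per cell cannot be told apart. The part of these markers' cells in the member values was not tested.

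**Figure D5:**
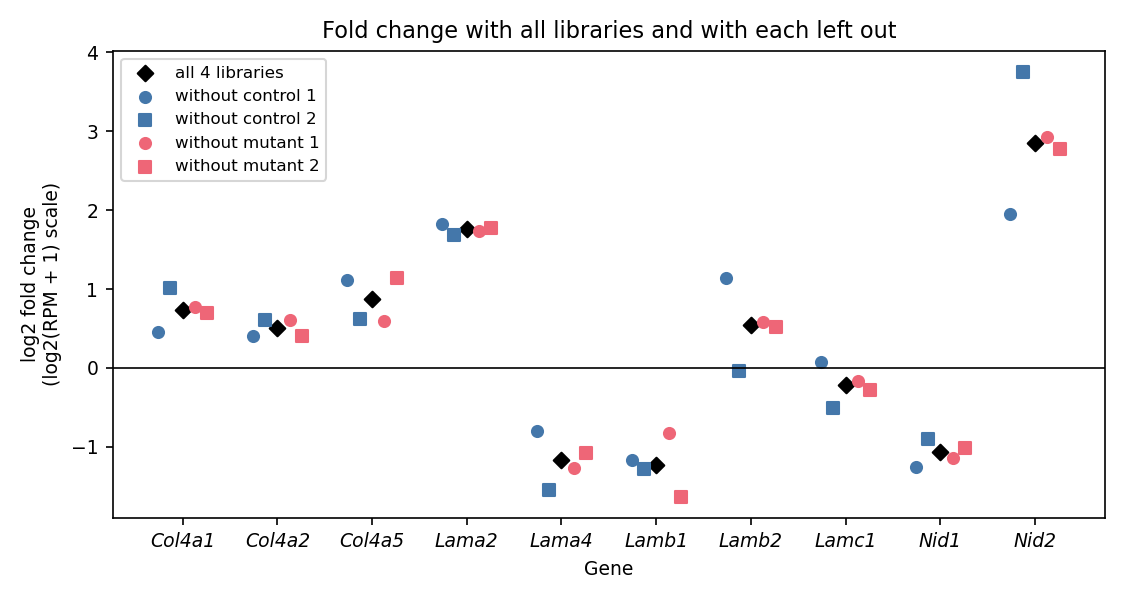
Log2 fold change of each of the 10 genes on the log2(RPM + 1) scale with all libraries (black diamonds) and with each library left out in turn. Lama2 stays between 1.69 and 1.82 and Nid2 ranges from 1.95 to 3.75, while Lamb2 and Lamc1 cross 0 when a control is left out.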

How the data were processed

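RNA of 4 libraries was read with an Ion AmpliSeq mouse transcriptome panel, per the labels' protocols. The deposited values are RPM, scaled by the authors to a library total that is the same in all 4 columns. Aligner, counter, genome build and any filter: not given in the sources used here. The value of 1 read was recovered from the low values, and 100% of non-zero values were then whole reads within 0.01 read, in each library. Amplicon reads are not independent molecules, so intervals on reads (95%, exact Poisson) cover counting error only.

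Genes with at least 1 RPM in 2 libraries were tested with limma 3.58.1 (trend) in R 4.3.3 on log2(RPM + 1), mutant against control, without a replicate block, two-sided, with Benjamini-Hochberg adjustment over all genes. Fold changes on this scale understate the change of low genes. On the recovered reads, edgeR 4.0.16 called 66 genes higher and 27 lower, and DESeq2 1.42.0 called 598 and 493; both were alternatives, with other pseudocounts, filters, scalings, a block and each library left out. The fit was also run on simulated data, whose outcome is not reported here and lends no support to the calls. Named genes are the members, list genes past the threshold and up to 3 further per list with the smallest p; untested collagen IV and laminin chains, and others so marked, were added. Members and lists were chosen with earlier results of these data known. Positions come from GENCODE M21 and promoters from RefSeq (GRCm38.p6). Distances, ratios and figures used Python 3.11.15. Some genes that the lists and the rule hold are not reported here.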

Additional observations from a re-analysis of the deposited data

How the results depend on the processing

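The fold changes of Col4a1, Col4a2, Col4a5, Lama2, Lama4, Lamb1, Nid1 and Nid2 kept their direction in all 15 alternatives. Lamb2 reversed without control 2 (-0.04) and Lamc1 without control 1 (0.07), both far from the threshold. Lama2 lost its call with no filter on low values (log2 fold change 1.76) and in edgeR (1.75), and its range over left-out libraries was 1.69 to 1.82. DESeq2 called Lama4 (-1.30), Lamb1 (-1.26), Nid1 (-1.18) and Nid2 (2.53), which limma did not. With a library left out, the ranges were 0.46 to 1.01 for Col4a1, 0.60 to 1.14 for Col4a5, -1.55 to -0.80 for Lama4, -1.63 to -0.82 for Lamb1, -0.04 to 1.14 for Lamb2, -0.51 to 0.07 for Lamc1, -1.25 to -0.90 for Nid1 and 1.95 to 3.75 for Nid2. The number of members called higher was 0 with no filter, 0 in edgeR, 2 in DESeq2 and 0 to 4 over left-out libraries; the number called lower was 3 in DESeq2 and 0 to 3. Over all genes, no filter called 56 higher and 18 lower, edgeR 66 and 27, DESeq2 598 and 493, and left-out libraries 0 to 1731 higher and 0 to 854 lower. The cause of these differences was not tested. The largest counts came without control 1 or control 2, where the lone control is assumed to vary as the mutants do, and none passed without mutant 1 or without mutant 2.

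With the replicate number as a block, 301 genes were called higher and 123 lower, and 2 members higher, Lama2 and Nid2 (2.85). The labels do not say that the numbers pair the libraries. Deviations of replicate 1 from its group mean correlated at r = 0.164 across 11638 genes between the groups, with 1 independent value per gene and group. Quantile normalization moved the median log2 fold change of all genes from 0.08 to -0.03, and DESeq2 gave -0.03; every member kept its sign in both. The members had at least 138 reads in every library.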
